A study of Mus musculus with 4 samples.

Results

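The genes described here are the 3 genes of the mouse Ctla2 locus (Ctla2a, Ctla2b and 4930486L24Rik) and 7 lysosomal cathepsins (Ctsl, Ctsb, Ctsd, Ctss, Ctsh, Ctsz and Ctsc). They are 10 of the 22180 genes named by a probe set with a single gene symbol, and each of the 10 was read by exactly 1 probe set. They were chosen by their difference between GSK126 and DMSO arrays, which was already known when the list was made. That difference is therefore given as a description and supports nothing by itself. Counts of these genes past a threshold are given below, and nothing is read from them.

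The cells were lines grown out of mammary tumours of the MMTV-NIC mouse model (strain FVB, female). In that model the MMTV promoter drives an activated ErbB2 receptor and, from the same transcript, Cre recombinase in mammary epithelium. One group received 2 µM GSK126 for 96 h (n = 2 arrays) and the other received DMSO, the solvent, for 96 h (n = 2 arrays). GSK126 blocks EZH2, the enzyme that places the repressive histone mark H3K27me3. Both groups were cultured with EGF, hydrocortisone, insulin and bovine pituitary extract. The labels do not say whether the arrays of a group came from separate cultures or separate lines, so the spread between them may be technical. Every value is a log2 expression value, and every change is GSK126 minus DMSO on the log2 scale. SE is the moderated standard error of a change from limma, a linear model fitted to all genes. It draws the variance of each gene towards a value typical of genes of like intensity. The SE is therefore not the spread of that gene's own arrays alone.

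Cathepsins are proteases that work mostly inside lysosomes. Most are cysteine proteases of the papain family and are made as inactive precursors, in which a propeptide covers the active site until it is cut off. Mouse Ctla2a and Ctla2b encode small proteins that resemble the propeptide of a cathepsin without the protease, and mouse Ctla2a protein inhibits cathepsin L. Their name comes from T lymphocytes, and the transcripts were first found in activated T lymphocytes and mast cells. Cystatins are a separate family of cathepsin inhibitors.

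The 250 bases before the transcription start are shown for the 3 Ctla2 locus genes, since these were the members that were higher together. They come from RefSeq (GRCm38.p6), all on the minus strand, at chr13:60936626-60936875 for Ctla2a, chr13:60897448-60897697 for Ctla2b and chr13:60864417-60864666 for 4930486L24Rik. Capitals mark matches, on either strand, to the AP-1 motif TGANTCA and to the cAMP response element core TGACGT.
Ctla2a: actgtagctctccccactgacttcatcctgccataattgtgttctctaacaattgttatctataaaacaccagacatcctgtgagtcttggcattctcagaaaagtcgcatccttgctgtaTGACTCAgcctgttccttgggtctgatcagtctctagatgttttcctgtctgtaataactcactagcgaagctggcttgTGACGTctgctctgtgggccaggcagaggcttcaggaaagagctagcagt
Ctla2b: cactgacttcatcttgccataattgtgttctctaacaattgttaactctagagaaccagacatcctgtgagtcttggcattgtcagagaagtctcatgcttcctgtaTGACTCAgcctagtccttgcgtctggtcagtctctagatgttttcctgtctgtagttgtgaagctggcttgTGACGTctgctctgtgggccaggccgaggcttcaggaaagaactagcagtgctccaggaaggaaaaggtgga
4930486L24Rik: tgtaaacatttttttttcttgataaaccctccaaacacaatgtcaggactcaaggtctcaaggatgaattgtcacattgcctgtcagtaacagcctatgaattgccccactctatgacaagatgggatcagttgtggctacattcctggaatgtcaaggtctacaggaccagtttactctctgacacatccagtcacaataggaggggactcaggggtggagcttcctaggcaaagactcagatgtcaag
The Ctla2a and Ctla2b windows share both motifs in the same order, and the 4930486L24Rik window holds neither of these. The annotation lists another start of Ctla2a farther downstream, and the Ctla2b window lies inside the annotated span of that gene.

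All 3 Ctla2 locus genes were higher with GSK126, and the changes of the cathepsins lay between -0.26 and 0.16. Ctla2a was at 10.21 and 10.40 in the GSK126 arrays, against 9.10 and 9.20 in the DMSO arrays. The lower GSK126 array was above the higher DMSO array by 1.01, which left a wide gap between the groups. The change of Ctla2a was 1.16 (SE 0.10), or 2.23-fold, and it ranked 26 among all genes ordered from the largest increase down.

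Ctla2b, the close relative of Ctla2a, was at 9.03 in both GSK126 arrays, against 8.07 and 8.40 in the DMSO arrays. The DMSO arrays were spread more widely than the GSK126 arrays, and the groups did not overlap. Its change was 0.80 (SE 0.12), or 1.74-fold, and without DMSO replicate 1 it was 0.63. 4930486L24Rik, for which no role is given here, was at 8.66 in both GSK126 arrays, against 7.81 and 7.82 in the DMSO arrays. Both groups were tight and far apart. Its change was 0.84 (SE 0.08), or 1.79-fold. Ctla2a and Ctla2b have closely similar sequence, so their probe sets may read some of each other's transcripts, and each is uncertain as a single gene.

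**Figure D1:**
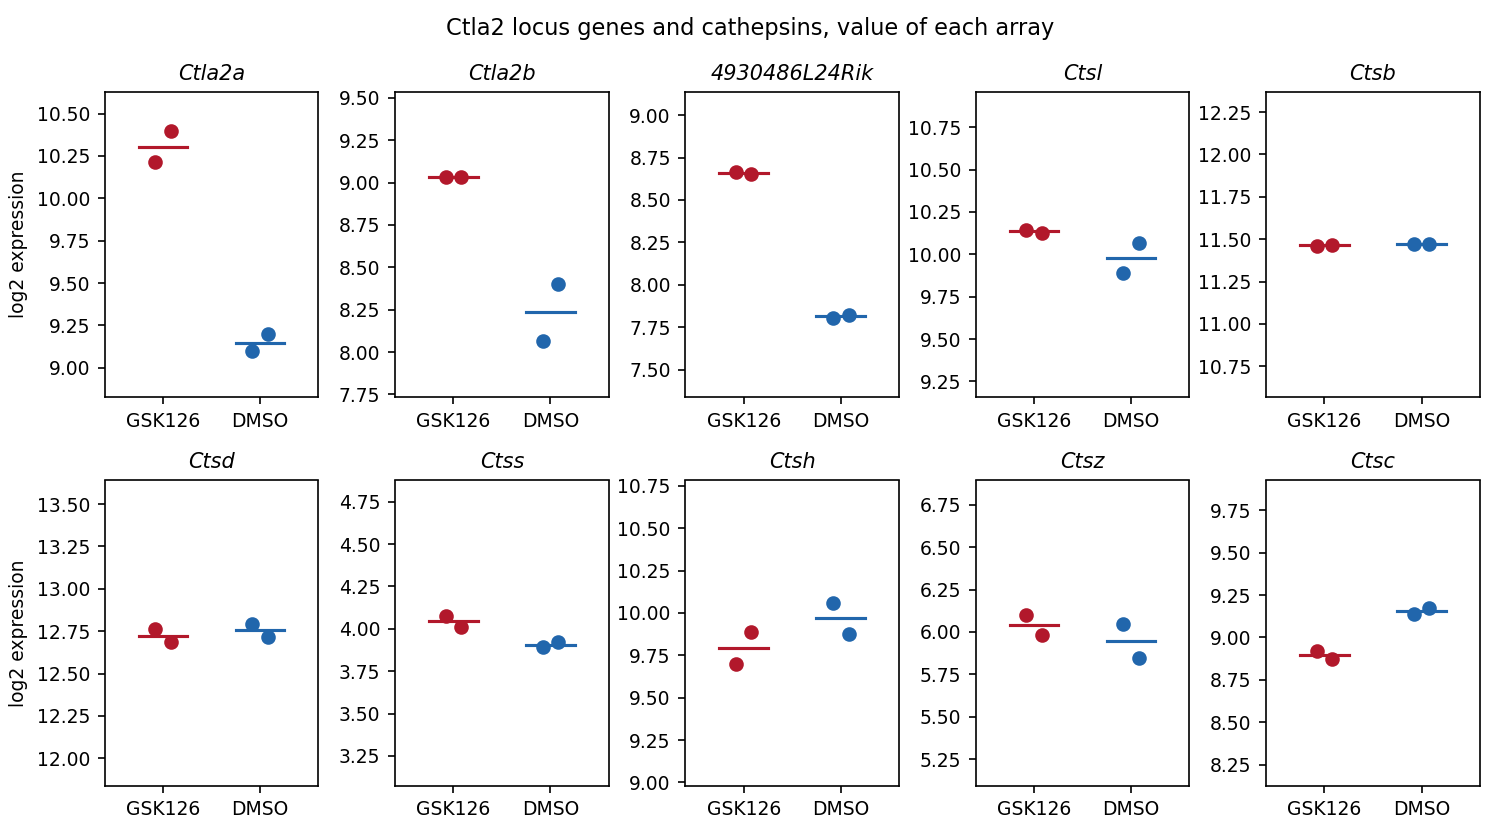
Log2 expression (vertical axis, each panel spanning the same 1.8 log2 units) of each of the 10 genes in the 2 GSK126 arrays (red, left) and the 2 DMSO arrays (blue, right), with bars at the group means. The Ctla2 locus genes are separated by gaps of 0.63 or more between the nearest arrays of the groups, while the GSK126 and DMSO points of the cathepsins lie close together.

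Among the cysteine endopeptidases, Ctsl, the enzyme that the Ctla2a protein inhibits, was at 10.15 and 10.13 in the GSK126 arrays, against 9.89 and 10.07 in the DMSO arrays. Both GSK126 arrays were above both DMSO arrays, but the gap of 0.06 was smaller than the spread between the DMSO arrays. The change was 0.16 (SE 0.09). Ctsb, a cysteine protease that also acts as a carboxydipeptidase, was at 11.46 and 11.47 in the GSK126 arrays, against 11.47 and 11.47 in the DMSO arrays. These 4 values were nearly equal, with a change of -0.01 (SE 0.08). Ctss, which trims the MHC class II invariant chain in antigen-presenting cells, was at 4.07 and 4.01 in the GSK126 arrays, against 3.89 and 3.92 in the DMSO arrays. It was the only member whose mean lay under 4.77, the 40th percentile of mean level over all genes. Genes under that percentile are called dim here, and the size of their changes is uncertain.

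Ctsd, the main aspartic protease of the lysosome, was at 12.76 and 12.69 in the GSK126 arrays, against 12.79 and 12.72 in the DMSO arrays. The groups overlapped and the change was -0.03 (SE 0.08). Ctsh, a cathepsin with aminopeptidase activity, was at 9.70 and 9.89 in the GSK126 arrays, against 10.06 and 9.87 in the DMSO arrays. These groups overlapped too, and the change of -0.17 (SE 0.10) was close to the spread between replicates. Ctsz, a carboxypeptidase, was at 6.10 and 5.98 in the GSK126 arrays, against 6.05 and 5.85 in the DMSO arrays, again with overlap, and its change was 0.10 (SE 0.13). Ctsc, the dipeptidyl peptidase that activates granule serine proteases, was at 8.92 and 8.87 in the GSK126 arrays, against 9.14 and 9.17 in the DMSO arrays. Its groups were apart by 0.21, and its change of -0.26 (SE 0.08) was the lowest among the 10 genes.

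**Figure D2:**
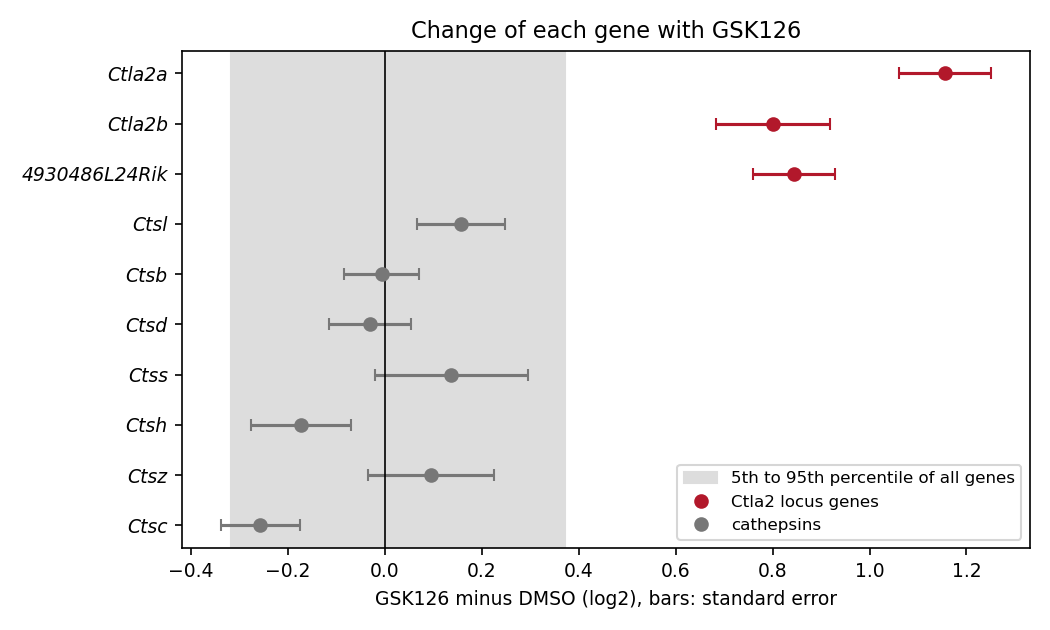
Change of each gene (GSK126 minus DMSO, log2, horizontal axis) with its moderated standard error as bars, Ctla2 locus genes in red and cathepsins in grey. The shaded band runs from the 5th to the 95th percentile of the changes of all genes. The 3 Ctla2 locus genes lie right of the band, which ends at 0.37, and the 7 cathepsins lie within it, between -0.26 and 0.16.

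Set as groups, the 3 Ctla2 locus genes had a median change of 0.84, the 7 cathepsins a median of -0.01 and all 22180 genes a median of -0.01. The contrast of the groups was built from each gene's values less its DMSO mean. The Ctla2 locus genes averaged 0.90 and 0.96 in the GSK126 arrays, against -0.08 and 0.08 in the DMSO arrays. The cathepsins averaged -0.002 and -0.02 in the GSK126 arrays, against 0.02 and -0.02 in the DMSO arrays. The mean change of the Ctla2 locus genes thus exceeded that of the cathepsins by 0.94, and by 0.85 to 1.04 when 1 array was left out. The 3 locus genes differed in change by up to 0.36 (1.16 for Ctla2a against 0.80 for Ctla2b), and the 7 cathepsins by up to 0.41 (0.16 for Ctsl against -0.26 for Ctsc).

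Across all genes, limma called 0.433% at an adjusted p under 0.05, 0.261% as higher and 0.171% as lower (58 and 38 genes, or 55 and 62 with arrays centred on their medians). The calls took in 3 of the 3 Ctla2 locus genes, as higher, and 0 of the 7 cathepsins, where Ctsc alone had an unadjusted p under 0.05. At an unadjusted p under 0.05 limma had 10.6% of all genes, 4.64% as higher and 5.93% as lower, and the counts at that p given below stand against those shares. Because the genes were listed with this contrast known, nothing is read from those counts. None of the 3 calls held when any 1 of the 4 arrays was left out or without the intensity trend in the prior variance. With the replicate number as a block, only that of Ctla2a remained. GSK126 and DMSO arrays did not overlap in 40.1% of all genes, with GSK126 higher in 18.2% and lower in 21.8%. They did not overlap in 5 members that were higher and 2 that were lower, and again nothing is read from this. The lower ones were Ctsc and Ctsb, and the gap of Ctsb was only 0.001.

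Along chromosome 13, RefSeq gene order places 4930486L24Rik, Ctla2b and Ctla2a in the cluster of rodent placental cathepsins. Tpbpb, a trophoblast gene of the same cluster, lies between Ctla2b and Ctla2a, and Ctsll3, a cathepsin L-like gene, comes before 4930486L24Rik. Among the nearest measured genes, 5 on each side of Ctla2a, 8 were not members, and all 8 were dim. Limma called 0 of these 8 at an adjusted p under 0.05, and 1, Tpbpb, had an unadjusted p under 0.05, a count near the 10.6% of all genes. Tpbpb was at 2.83 and 2.86 in the GSK126 arrays, against 2.38 and 2.50 in the DMSO arrays (change 0.40, SE 0.17, limma adjusted p = 0.462).

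The other neighbours had changes of 0.07 for BC051665, 0.27 for Ctsll3, 0.21 for Tpbpa, 0.02 for Ctsj, 0.38 for Ctsq, 0.31 for Ctsr and -0.09 for Cts6. The 8 neighbours had a median of 0.24, against 0.04 for all 8872 dim genes. One step farther out, on the far side of BC051665, Dapk1, a death-associated protein kinase gene, was at 6.65 and 6.77 in the GSK126 arrays, against 7.39 and 7.35 in the DMSO arrays. Its change was -0.66 (SE 0.10, limma adjusted p = 0.0513). Dapk1 lies outside the 5 neighbours and was named after its values were seen.

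**Figure D3:**
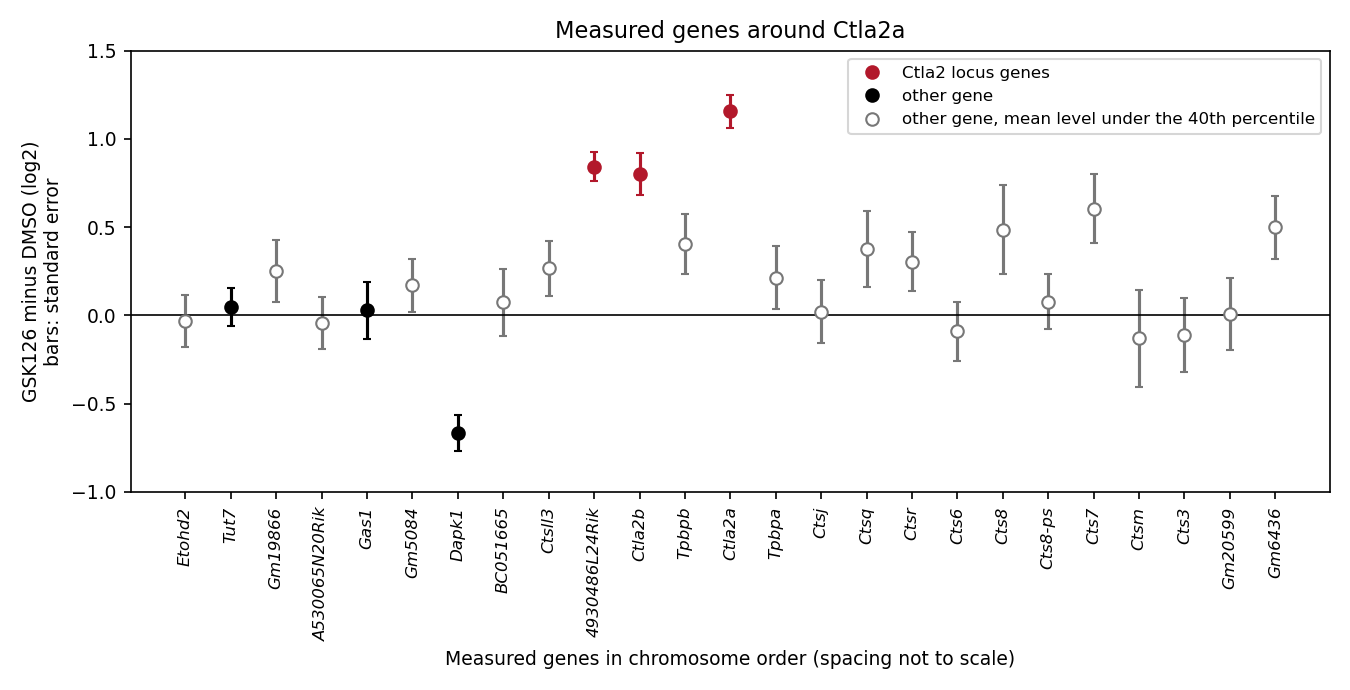
Change (GSK126 minus DMSO, log2, vertical axis) with its moderated standard error for 25 measured genes in chromosome order around Ctla2a. The Ctla2 locus genes are in red, and open circles mark other genes whose mean level was under the 40th percentile. The 3 locus genes lie at 0.80 to 1.16, the dim gene Tpbpb between 2 of them lies at 0.40, and Dapk1 lies at -0.66.

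The 11 genes listed for the placental cathepsin cluster, which leave out the Ctla2 locus genes, were all dim. Limma called 0 of the 11 at an adjusted p under 0.05, and at an unadjusted p under 0.05 there were 2 higher and 0 lower. The share of all genes higher at that p was 4.64%. The median change was 0.27. The smallest p belonged to Cts7 (change 0.60, SE 0.20, limma adjusted p = 0.350), followed by Tpbpb and by Cts8 (0.49, SE 0.25, limma adjusted p = 0.550). These genes are known from the rodent placenta, and how far values this low reflect their transcripts was not tested.

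Of the 7 other cathepsins, limma called 0 at an adjusted p under 0.05, and at an unadjusted p under 0.05 there were 2 higher and 0 lower, against 4.64% and 5.93% of all genes. Their median change was 0.14, and 4 of the 7 were dim. Ctsw, known from cytotoxic lymphocytes, was at 7.48 and 7.45 in the GSK126 arrays, against 7.15 and 7.07 in the DMSO arrays (change 0.35, SE 0.10, limma adjusted p = 0.268). Both GSK126 arrays were above both DMSO arrays. Ctsf, a papain-type cathepsin, had a change of 0.53 and was dim (SE 0.18, limma adjusted p = 0.385). Ctsa, the serine carboxypeptidase that protects lysosomal beta-galactosidase, had a change of -0.14 (SE 0.10, limma adjusted p = 0.665).

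The list of other cathepsin inhibitors held 21 measured genes (cystatins, stefins, kininogens, serpins and Spock1), of which 16 were dim. Limma called 0 of them at an adjusted p under 0.05, while an unadjusted p under 0.05 was reached by 2 higher and 0 lower (10.6% of all genes in either direction), and the median change was 0.05. Cst6, the gene of cystatin E/M, was at 7.62 and 7.56 in the GSK126 arrays, against 7.23 and 6.62 in the DMSO arrays. Both GSK126 arrays were higher, but the DMSO arrays differed from each other by nearly as much as the group means did (change 0.67, SE 0.18, limma adjusted p = 0.268). Cst3, the gene of the secreted inhibitor cystatin C, was at 9.30 and 9.36 in the GSK126 arrays, against 9.12 and 9.09 in the DMSO arrays (change 0.23, SE 0.08, limma adjusted p = 0.400). Kng2, a kininogen gene, was dim and had a change of 0.37 (SE 0.19, limma adjusted p = 0.547).

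Genes that process cathepsins, tag them with mannose 6-phosphate, sort them or drive their transcription were all above the 40th percentile, 13 of 13. Limma called 0 at an adjusted p under 0.05, while an unadjusted p under 0.05 was reached by 0 higher and 2 lower (5.93% of all genes as lower), and the median change was -0.05. Lgmn, the asparaginyl endopeptidase that cuts several cathepsins into their 2-chain forms, was at 7.80 and 7.63 in the GSK126 arrays, against 8.07 and 8.03 in the DMSO arrays (change -0.34, SE 0.10, limma adjusted p = 0.299). Both GSK126 arrays were below both DMSO arrays. Nagpa, which uncovers the mannose 6-phosphate tag, had a change of -0.32 (SE 0.13, limma adjusted p = 0.447), and the sorting adaptor gene Gga3 one of -0.18 (SE 0.12, limma adjusted p = 0.667).

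Routes in which single cathepsins act gave no calls. Of 6 measured MHC class II genes, where Ctss acts, limma called 0 at an adjusted p under 0.05. At an unadjusted p under 0.05, 1 was higher (4.64% of all genes). The median change was -0.06, and 2 of the 6 were dim. The gene higher at that p was H2-Ab1 (change 0.49, SE 0.17, limma adjusted p = 0.386). It was followed in p by H2-DMa (0.24) and the class II regulator gene Ciita (-0.16). Cd74, the invariant chain gene, was listed but was not among the genes measured. Of 7 granule serine proteases that cathepsin C activates, limma called 0, and 0 had an unadjusted p under 0.05, with a median of -0.06 and 6 of 7 dim. The smallest p were those of Mcpt4 (-0.23), Prtn3 (-0.18) and Gzma (0.14).

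**Figure D4:**
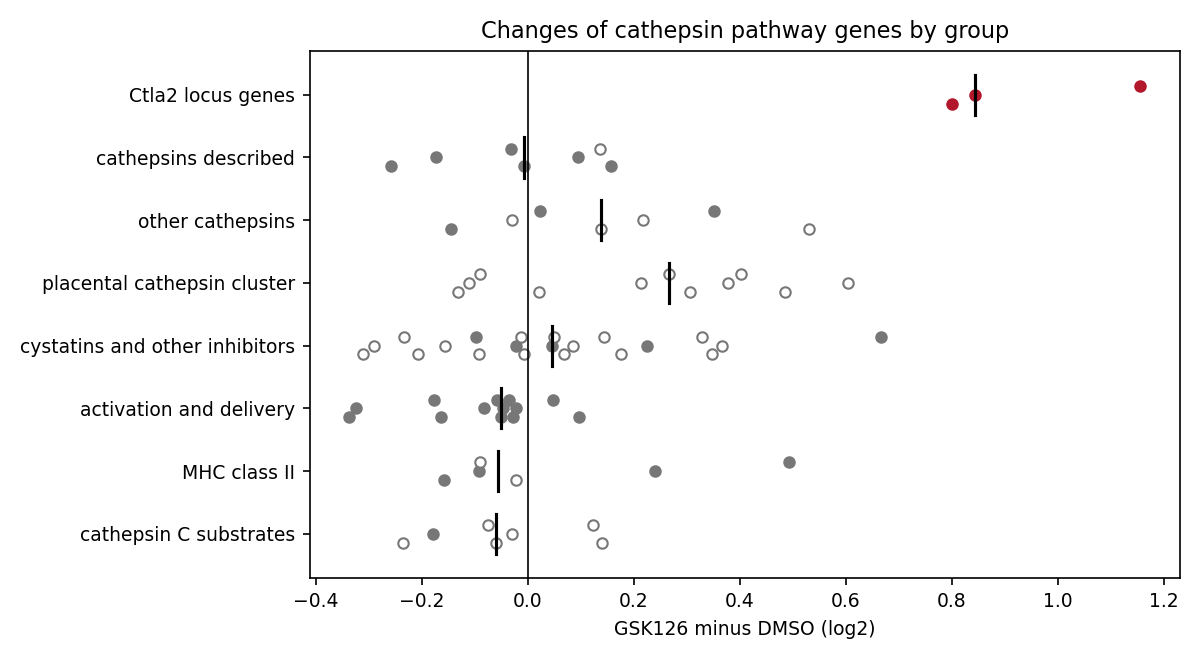
Change of each measured gene (GSK126 minus DMSO, log2, horizontal axis) in the Ctla2 locus, the 7 cathepsins and 6 further lists, with open circles for genes under the 40th percentile of mean level and black bars at the medians. The 3 Ctla2 locus genes lie at 0.80 or higher, and the highest gene of the other groups, Cst6, lies at 0.67.

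Marker genes were read for the cell types in which these genes are best known. Of 8 measured mammary epithelial markers, 7 were above the 40th percentile, among them Epcam at 10.44 and 10.56 in the GSK126 arrays and at 10.62 and 10.62 in the DMSO arrays. The 8 had a median change of -0.14, and in 5 of them both GSK126 arrays were below both DMSO arrays (21.8% of all genes). In the others, Cdh1 (-0.09) and the luminal keratin genes Krt8 (0.01) and Krt18 (0.01), the groups overlapped. Limma called 0 of the 8 at an adjusted p under 0.05, and at an unadjusted p under 0.05 there were 2 lower, the basal keratin gene Krt14 (-0.51) and the alveolar transcription factor gene Elf5 (-0.38). The part of these shifts in the values of the 10 genes was not tested. Of 8 measured T cell markers 7 were dim, and of 6 mast cell markers 5 were dim, the exception being Kit. T cell markers had a median change of 0.14 and mast cell markers one of 0.10, with 0 called by limma at an adjusted p under 0.05 and 1, Cpa3 (0.54), at an unadjusted p under 0.05. Macrophages are rich in cathepsins. Of 12 macrophage markers 8 were dim, including Ptprc, Adgre1 and Itgam, and Cd68 was called as higher (change 1.00, SE 0.09, limma adjusted p = 0.0100). That call ended in each fit without 1 array (limma adjusted p from 0.11 to 0.233). Mpeg1, a dim macrophage marker, had a change of 0.68 (SE 0.19, limma adjusted p = 0.268). The mean level over the 12 was 5.29 and 5.26 in the GSK126 arrays, against 5.13 and 5.17 in the DMSO arrays. That mean takes in the large changes of Cd68 and Mpeg1, and the median change of the 12 was 0.01. The groups did not overlap in 3 higher markers (18.2% of all genes) and 2 lower ones (21.8%). The lower ones were Tyrobp (-0.19) and Itgam (-0.15), both dim. Cd14, the macrophage marker of highest level, had overlapping groups and a change of 0.11. Endothelial markers (6 of 8 dim, median change 0.03) and fibroblast markers (3 of 7 dim, 0.08) had 0 calls in limma. At an unadjusted p under 0.05 there was 1 endothelial marker, Egfl7 (0.41), and 2 fibroblast markers, Pdgfra (0.45) and Thy1 (0.35), against 10.6% of all genes. In such bulk RNA, a change in the share of cells that make a transcript and a change per cell cannot be told apart.

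The genes whose 4 array values lay nearest to the mean profile of the Ctla2 locus genes were sought among genes above the 40th percentile. Likeness was the root mean square distance over the 4 arrays after each gene's mean was removed. The nearest were Ifit2 (0.02 log2 units), Ifi204 (0.03), Jam2 (0.06), S100a7a (0.06) and Chn1 (0.07). Ifit2 and Ifi204 are interferon-induced genes and Jam2 encodes a junctional adhesion molecule. Ifit2 was at 6.13 and 6.16 in the GSK126 arrays, against 5.13 and 5.31 in the DMSO arrays. The locus genes themselves lay at 0.12 (Ctla2a), 0.09 (Ctla2b) and 0.07 (4930486L24Rik) from their own mean profile, and the cathepsins at 0.39 to 0.60. With 4 arrays in 2 groups, many genes of like change come close.

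A promoter window of 250 bases was matched for 8 of the 10 genes. A global alignment of the Ctla2a and Ctla2b windows shown above found 208 identical bases among 228 aligned, or 91.2%. The other 27 pairs of windows, 4930486L24Rik with Ctla2a (61.6%) among them, lay between 53.7% and 70.0%. The AP-1 motif TGANTCA begins 129 bases before the start in Ctla2a and 143 bases before it in Ctla2b, and 6.8% of all windows hold it. The core TGACGT begins 50 and 72 bases before the start in those genes, and 6.5% of all windows hold it. Neither motif matched in the 4930486L24Rik window or in the windows of the 5 cathepsins. Of the 8 motifs searched, the E-box CACGTG, which TFEB-type factors bind in lysosomal genes, matched in Ctsd and Ctsl and in 6.0% of all windows. The Ctsl window, like that of Ctla2b, lies inside the annotated span of its gene. The STAT motif TTCNNNGAA matched in Ctla2a, 157 bases before the start, in 4930486L24Rik, 108 bases before it, and in Ctsc, and in 7.0% of all windows. The interferon-stimulated response element matched in Ctss and in 3.0% of all windows. The motifs were chosen with the sequences in view, so nothing is read from the matches or from these shares. A match is a stretch of letters and was not tested for binding.

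H3K27me3 is known to lie over many CpG-rich promoters. The Ctla2 locus windows held few CpG dinucleotides. The window of Ctla2a held 3, that of Ctla2b 3 and that of 4930486L24Rik 0, against a median of 6 over all 32841 windows. The observed over expected CpG ratio was 0.22 for Ctla2a, 0.21 for Ctla2b and 0 for 4930486L24Rik, against a median of 0.37 over all windows. The ratios of Ctla2a and Ctla2b lay at percentiles 32.6 and 31.2 of all windows, so many other windows were lower. The 5 cathepsin windows held between 4 CpG for Ctss and 27 for Ctsd. The ratios of Ctss (0.32) and Ctsz (0.34) were also under the median, and those of Ctsl (0.51), Ctsc (0.53) and Ctsd (0.96) were above it. H3K27me3 itself was not measured in these arrays, and its part in the changes of these genes was not tested.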

How the data were processed

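Total RNA from GSK126 and DMSO cells was read on single-channel Affymetrix arrays. The authors deposited log2 values from robust multi-array averaging (RMA). Per the labels, they were made in Expression Console from core exons, and Affymetrix Power Tools appears, without a version, in the submitters' processing notes. The sources used here do not give the genome build of the array data, so no coordinates from them are printed. RefSeq (GRCm38.p6) serves for gene order and for the promoter windows, whose coordinates are given above. Of 41345 probe sets, the platform annotation gave 23521 a single symbol, 1814 several and 16010 none. Each of 22180 genes was represented by its probe set with the highest mean. Array medians ran from 4.727 to 4.79 and array correlations from 0.981 to 0.988. The number of arrays limits the precision.

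Changes were fitted over all genes with limma 3.58.1 in R 4.3.3, with a prior variance that follows intensity, two-sided moderated tests and adjustment by Benjamini-Hochberg (2 residual degrees of freedom, prior 5.57). The fit was run on simulated data drawn from its own fitted variances. Such data follow the model by design, so the run checks the code and not whether the model suits these arrays. The members, gene lists, motifs and tests were chosen with earlier results of these data known, and the motifs with the sequences in view. Besides the 10 members, the text names of each of the 6 pathway lists every called gene and the 3 of smallest p, the 5 measured genes on each side of Ctla2a and the 5 nearest profiles. Alternatives were a robust prior, a prior without the trend, a filter on dim genes, averaged probe sets, centred arrays, quantile normalization, a block for the replicate number and fits without each array. The smallest two-sided p of an exact permutation of 2 against 2 arrays is too large to pass the threshold, so none was run.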

Additional observations from a re-analysis of the deposited data

How the results depend on the processing

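The excess of the Ctla2 locus genes over the cathepsins was 0.94. It was 1.00 after quantile normalization and 0.85 to 1.04 when 1 array was left out. Averaging probe sets could not change it, since each member has 1, and neither could centring, which shifts all genes of an array alike. Of the 20 member changes under centring or quantile normalization, 11 moved by less than 1 SD between replicates and 9 by more, among them Ctsb (-0.06 with centred arrays) and 4930486L24Rik (0.89 after quantile normalization). Ctsd ran from -0.07 to 0.01 and Ctsz from -0.01 to 0.20 when 1 array was left out, so their sign depended on single arrays. For the 6 fixed lists, 5 alternatives called 90 to 149 genes over all and 0 list genes in limma, although the filter on dim genes left 0 placental cathepsins to test. The remaining alternatives called too few genes over all to bear on the lists.

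The count of all called genes was 96 (58 higher, 38 lower) and depended on the processing. It was 0 without the intensity trend (1964 genes at an unadjusted p under 0.05), 149 without dim genes, and 0 to 4 when 1 array was left out. In those leave-out fits the lone array is assumed to vary like the other group. Centring gave 55 higher and 62 lower. The deviations of same-numbered arrays from their group means correlated at -0.03 over all probe sets. A correlation over all probe sets cannot exclude a pairing that acts on part of the genes. A fit with the replicate block gave 10 calls. In added alternatives, the limma adjusted p of Dapk1 ran from 0.0244 without dim genes to 0.446 without GSK126 replicate 2 and passed with a robust prior (0.044) and with centred arrays (0.0318), and that of Cd68 ran from 0.00398 to 0.233 and missed the threshold without the trend, with the replicate block and in each fit without 1 array. The cause of these shifts was not tested.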
